A study of Homo sapiens with 6 samples.

Results

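Heat shock proteins and the cytosolic and mitochondrial chaperones were followed in U251 cells, a long-established line from a human glioma, on nanofibers of poly-caprolactone. A fixed list of 43 gene names defined the set: heat shock factors, the HSP70, HSP110 and HSP90 families, small heat shock proteins, mitochondrial chaperonin, J-domain proteins, BAG proteins, HSP90 cochaperones, the subunits of the cytosolic chaperonin TRiC and the serpin SERPINB6. Each gene was read from the single-symbol probe set with the highest mean over the 6 arrays. Of the 43 genes, 36 had such a probe set and 34 were bright enough to be tested, among 12381 genes tested in all. All 34 lay above the array median on each of the 6 arrays. HSPA1A, HSPA1B, HSPA8 and TCP1 were lost because their probe sets carry several gene symbols, HSPA2 and CRYAB were dim, and HSF2, AHSA1 and SERPINB6 had no matching probe set and are not analysed here.

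In 3 cultures the cells were plated on highly aligned fibers, and in 3 cultures on randomly oriented fibers of the same polymer. Both groups were the same cell line in medium with 10% serum, and total RNA was collected after 24 h without any other treatment. RNA from each culture was hybridised to 1 Affymetrix array. Values are log2 units, and a difference is always the aligned mean minus the random mean. The comparison asks which chaperone transcripts follow the topography of the substrate.

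Chaperones bind unfolded stretches of other proteins and release them in cycles driven by ATP. HSP70 proteins take unfolded chains from J-domain proteins and let them go when a nucleotide exchange factor such as HSP110 or a BAG protein acts, HSP90 finishes kinases and steroid receptors with the help of cochaperones, and TRiC folds actin and tubulin in a closed chamber. Heat shock factor HSF1 induces many of these genes when unfolded proteins build up, and tumour cells, gliomas included, are known to rely on HSP90 and HSF1.

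The array of aligned replicate 3 lay apart from the other 5. On the first principal component of the tested genes, with 62.0% of the variance, aligned 3 was at 31.6 and the other arrays lay between -11.7 and 6.33. The 3' minus 5' signal of the GAPDH control probe sets was 0.09 to 0.16 on aligned and 0.08 to 0.12 on random fibers, that of the ACTB probe sets was 0.09 to 0.21 on aligned and 0.17 to 0.22 on random fibers, and the 18S ribosomal RNA controls read 9.78 on aligned 3 and at most 9.14 on the other arrays. Of 11 markers of glioma and astrocytes 9 passed the brightness filter, VIM, NES and SOX2 among them, while S100B and CHI3L1 were dim and GFAP, the defining filament of astrocytes, was low at means of 5.22 on aligned and 6.03 on random fibers. Of these 9 markers 3 were at an unadjusted p under 0.05 and 0 at an adjusted p under 0.05 in limma: SOX2 and SOX9 with differences of -0.44 and -0.53 and no overlap between groups, and EGFR with 0.45. Of 26 markers of other cell types 11 passed, with 1 (SYT1, a neuronal gene) at an unadjusted p under 0.05, and PTPRC, CD14, EPCAM and CDH1 were dim. In RNA from whole cultures, fewer cells of a kind and less RNA per cell cannot be told apart.

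The binding sites of heat shock factors are inverted repeats of a short unit, and the promoter windows of the chaperone genes were searched for them. RefSeq windows on GRCh38.p14, which run from upstream to just past each gene's start, were found for 38 of the 43 genes. The letters GAANNTTC or TTCNNGAA, which are the same on both strands, were found in 20 of these 38 genes (52.6%), against 16.2% of all 27305 genes in the table. The longer form, in which GAANNTTC is followed by NNGAA or TTCNNGAA by NNTTC, contains the shorter one and was found in 6 of 38 genes (15.8%), against 0.608% of all genes. Heat shock genes are the textbook bearers of this motif, so the shares describe the list. The 6 stretches are printed 5′ to 3′ on the strand of the gene, with every match in capitals. HSPA9 and HSPB1 are shown because, of the 3 genes at an unadjusted p under 0.05, they have a match (1 short match each), and the others as HSP90, HSP70 and HSP40 genes that heat shock factors are known to drive. The third of these genes, TRAP1, had no match in its windows.
HSPA9 (chr5:138575398-138575517, minus strand): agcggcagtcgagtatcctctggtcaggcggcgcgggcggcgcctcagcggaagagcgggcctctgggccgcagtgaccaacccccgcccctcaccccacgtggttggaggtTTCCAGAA
HSPB1 (chr7:76302473-76302572, plus strand): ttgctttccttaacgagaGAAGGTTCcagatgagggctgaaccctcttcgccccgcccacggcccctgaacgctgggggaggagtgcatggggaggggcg
HSP90AA1 (chr14:102087065-102087164, minus strand): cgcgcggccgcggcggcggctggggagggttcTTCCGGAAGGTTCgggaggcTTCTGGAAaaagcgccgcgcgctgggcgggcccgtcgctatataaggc
HSP90AB1 (chr6:44247763-44247862, plus strand): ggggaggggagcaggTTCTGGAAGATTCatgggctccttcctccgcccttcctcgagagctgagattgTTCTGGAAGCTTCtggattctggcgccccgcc
HSPA8 (chr11:123062137-123062236, minus strand): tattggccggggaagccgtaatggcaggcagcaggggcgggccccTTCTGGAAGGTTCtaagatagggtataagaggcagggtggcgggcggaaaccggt
DNAJB1 (chr19:14518408-14518507, minus strand): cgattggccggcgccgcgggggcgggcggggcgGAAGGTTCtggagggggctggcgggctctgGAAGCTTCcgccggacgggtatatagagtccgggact

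No chaperone transcript differed between aligned and random fibers past the adjusted threshold, and the measured differences were small, much as over all genes. None of the 34 genes passed limma's test with Benjamini-Hochberg adjustment over all genes, where 0 of 12381 genes passed (0%), and the lowest adjusted p among the 34 was 0.463. The median log2 difference over the 34 genes was -0.01, with 17 genes above 0 and 17 below, against a median of 0.01 over all genes, where 52.5% were above 0. The median size of the difference, sign aside, was 0.08 log2 units for the 34 genes and 0.10 for all genes. No chaperone gene differed by more than 0.5 log2 units (0 of 34), which is near the 3.41% of all genes that did. For 28 of the 34 genes the 95% confidence interval lay within 0.5 log2 units of 0 on either side, a 1.41-fold change, as it did for 80.7% of all genes.

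**Figure D1:**
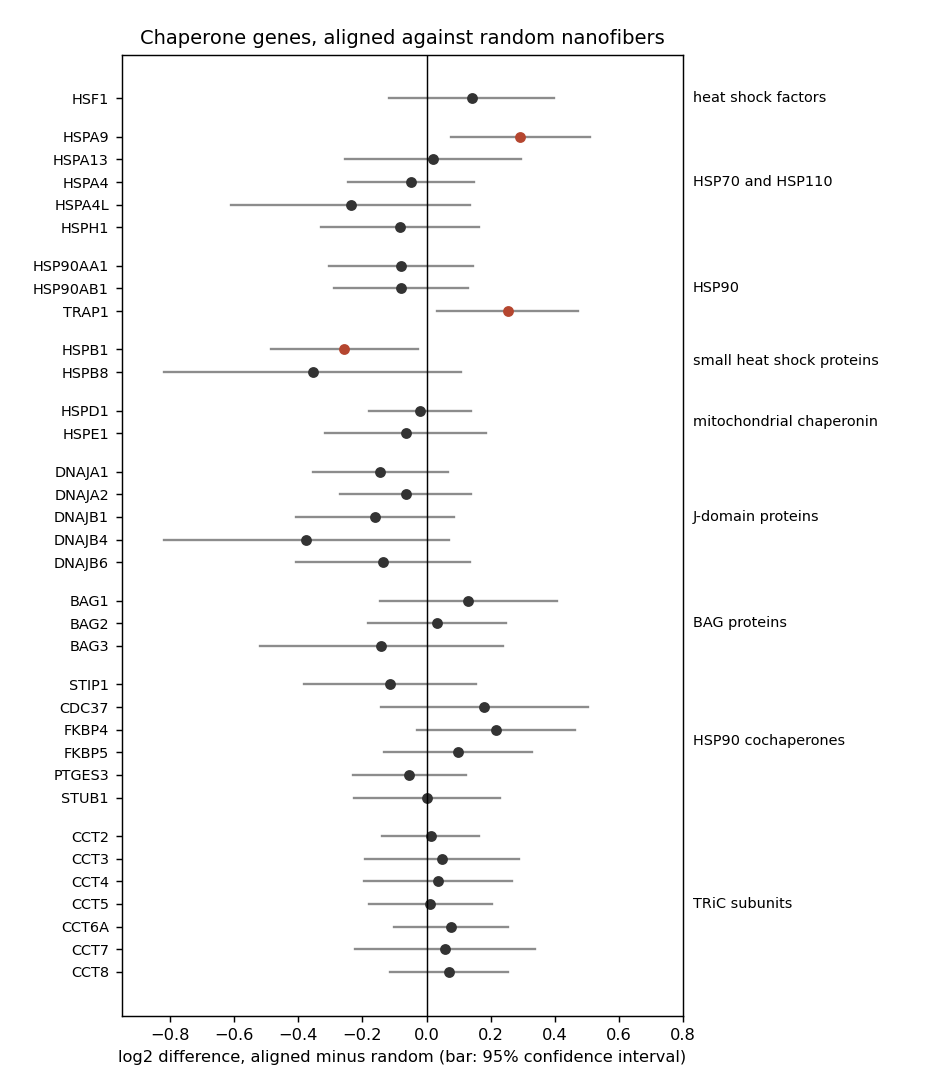
Log2 differences, aligned minus random, of the 34 tested chaperone genes in family order, with 95% confidence intervals from limma as bars. Red points are the 3 genes at an unadjusted p under 0.05, HSPA9 and TRAP1 to the right of 0 and HSPB1 to the left.

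At an unadjusted p under 0.05 there were 3 chaperone genes, 8.82% of the 34, against 1303 of all genes, which is 10.5%. Of the 34 genes 24 had several bright probe sets, and in 7 of these (BAG2, CCT4, CCT6A, DNAJA2, FKBP5, HSPD1 and STUB1) the probe sets disagreed in sign. HSPA9 and TRAP1 were higher on aligned fibers and HSPB1 was lower. In the brightest probe set of each gene, the arrays of the groups did not overlap for these 3 genes alone. The 2 higher genes are 5.88% of the 34, against 4.72% of all genes, and the lower gene is 2.94%, against 5.81% of all genes. Groups that did not overlap made up 8.71% of all genes upward and 9.33% downward, so on both measures the chaperone genes stood near or below the background. Dropping aligned 1 gave 8 chaperone genes at that threshold (23.5%, against 20.1% of all genes), HSPA9 and TRAP1 among them but not HSPB1. Dropping aligned 2 or aligned 3 gave HSPA9 alone (2.94%, against 8.38% and 6.58% of all genes). Dropping random 1 gave HSPA9 and HSPB1, and dropping random 2 gave HSPA9 and DNAJB4 (5.88% each, against 9.67% and 5.97%). Dropping random 3 gave HSPA9, TRAP1 and FKBP4 (8.82%, against 5.04%). With 2 arrays in a group separation is more frequent for every gene: dropping aligned 1 separated the groups in 13 chaperone genes (38.2%) and in 40.2% of all genes. Dropping aligned 2, random 2 or random 3 separated them in 6 (17.6%), against 25.9% to 26.8% of all genes. Over all genes, dropping aligned 1 gave 2491 at the unadjusted threshold, dropping aligned 3 gave 815, dropping random 2 gave 739 and dropping random 3 gave 624.

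Both genes that were higher at the unadjusted threshold encode mitochondrial chaperones, while the mitochondrial chaperonin genes HSPD1 and HSPE1 were not higher. These 2 genes are 5.88% of the 34, near the 4.72% of all genes. HSPA9, the HSP70 of the mitochondrial matrix, pulls imported proteins across the inner membrane and folds them. Its values were 12.122, 12.272 and 12.438 on aligned fibers and 11.968, 11.990 and 11.996 on random fibers. Every aligned array lay above every random one, and the random arrays were almost identical. The log2 difference was 0.29 ± 0.09 (SE), or 1.22-fold, with an unadjusted p of 0.0147 and an adjusted p of 0.463 in limma. The other bright HSPA9 probe sets behaved alike, with differences of 0.38 ± 0.14 and 0.30 ± 0.10 (SE) and no overlap between groups. In that fit 9.69% of all probe sets were at an unadjusted p under 0.05. Among the 34 genes HSPA9 alone stayed at an unadjusted p under 0.05 in all 15 alternative settings, with differences of 0.21 to 0.38, although its adjusted p was never below 0.124.

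TRAP1, the mitochondrial member of the HSP90 family, is often abundant in tumours. It read 9.31, 9.42 and 9.58 on aligned fibers, against 9.09, 9.20 and 9.26 on random fibers. The groups did not overlap, but the gap between the lowest aligned and the highest random array was small. The difference was 0.25 ± 0.09 (SE), or 1.19-fold, with an unadjusted p of 0.0289 and an adjusted p of 0.463 in limma. Dropping aligned 2, aligned 3, random 1 or random 2 took its unadjusted p above the threshold, to between 0.0638 and 0.0982. The chaperonin of the matrix, built from HSPD1 (HSP60) and its lid HSPE1 (HSP10), gave overlapping groups. HSPD1 read 13.45, 13.46 and 13.40 on aligned fibers, against 13.42, 13.44 and 13.50 on random fibers, a difference of -0.02 with an interval of -0.18 to 0.14. HSPE1 read 11.30, 11.29 and 11.22 on aligned fibers, against 11.24, 11.20 and 11.56 on random fibers, a difference of -0.07. Both were highest on random 3, and without both arrays numbered 3 their differences were 0.02 and 0.07. The difference between HSPA9 and the chaperonin genes was not tested.

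Other proteins of mitochondrial folding and quality control came from a separate list of 14 genes, 12 of them tested. Of these 11 had a difference above 0 (background 52.5%), the median was 0.08 and 1 was at an unadjusted p under 0.05. That gene was LONP1, the ATP-driven protease of the matrix, with a difference of 0.35 ± 0.13 (SE) that was 0.20 without aligned 3. Its unadjusted p lay between 0.0529 and 0.0908 when any 1 array other than aligned 1 was dropped. DNAJA3 and GRPEL1, the J-domain partner and the nucleotide exchange factor of HSPA9, differed by 0.38 ± 0.18 and 0.16 ± 0.08 (SE), and HSCB, a J-domain protein of iron-sulfur cluster assembly, by -0.18 ± 0.09. The DNAJA3 difference was 0.17 without aligned 3. The unadjusted p of GRPEL1 was 0.0822, or 0.0479 under the replicate block. For 0 of the 12 did the test over all genes give an adjusted p under 0.05, the lowest in limma being 0.472.

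Small heat shock proteins hold unfolded proteins in soluble form without using ATP. HSPB1 (HSP27), which also binds actin filaments, read 11.884, 11.954 and 11.906 on aligned fibers and 12.003, 12.159 and 12.348 on random fibers. The aligned arrays were close together and all lay below the random ones, of which random 3 was the highest. The difference was -0.26 ± 0.10 (SE), or 1.19-fold lower on aligned fibers, with an unadjusted p of 0.0334 and an adjusted p of 0.472 in limma. Without random 3 it was -0.17, with an unadjusted p of 0.0950, and without aligned 1, aligned 2, aligned 3 or random 2 the unadjusted p lay between 0.0583 and 0.0740. HSPB8, which works with BAG3 to send damaged proteins to autophagy, read 9.91, 9.38 and 9.15 on aligned fibers, against 9.93, 9.60 and 9.97 on random fibers. In this probe set the groups overlapped because aligned 1 lay above random 2. The difference was -0.36 ± 0.20 (SE), which was -0.57 without aligned 1 and -0.19 without aligned 3. The second bright HSPB8 probe set differed by -0.19 ± 0.11 (SE), and there the groups did not overlap. CRYAB (alpha B-crystallin) was dim, with 5.23, 5.15 and 5.81 on aligned fibers and 5.60, 5.58 and 5.53 on random fibers, and was not tested.

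**Figure D2:**
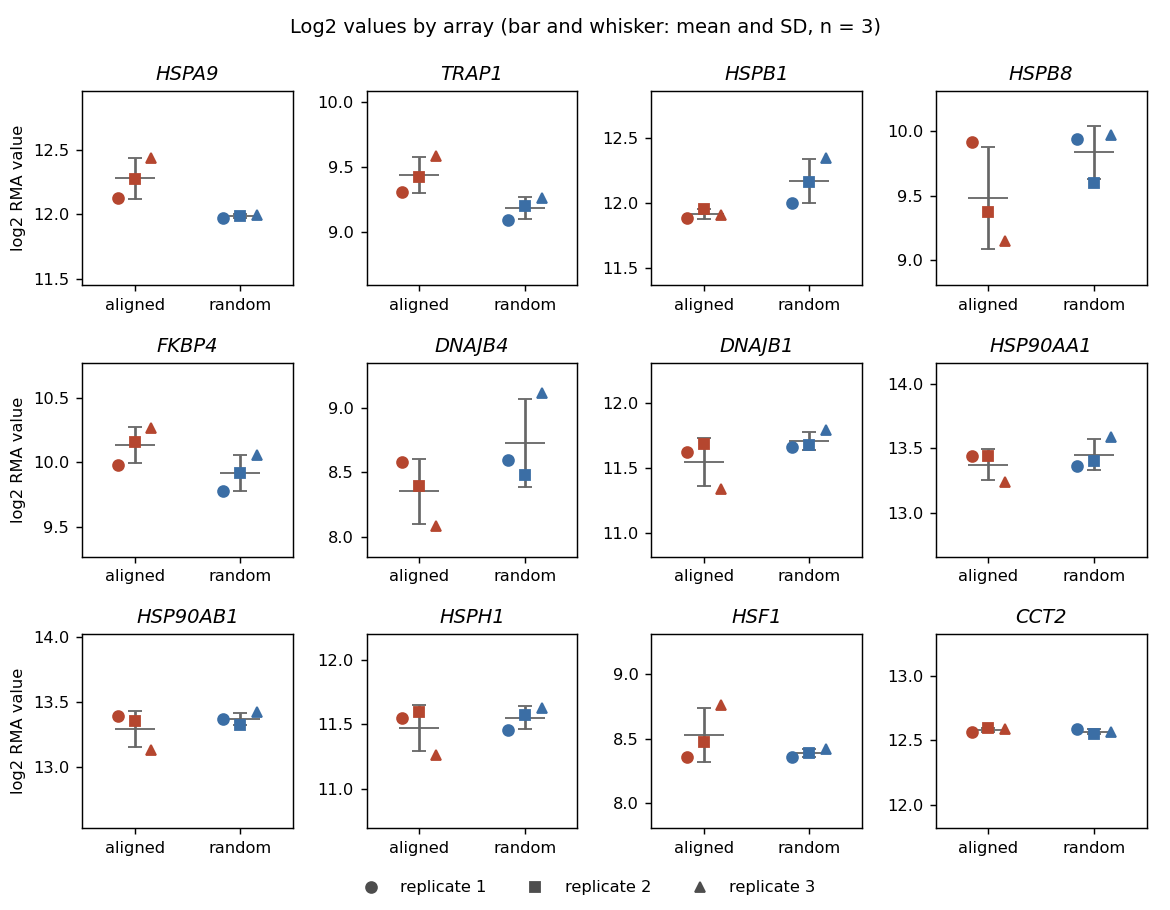
Log2 values of 12 chaperone genes on each array, aligned on the left of each panel and random on the right, with the mean and SD of 3 arrays and an axis of equal length in every panel. HSPA9 and TRAP1 lie higher and HSPB1 lower on all aligned arrays, the other panels overlap, and CCT2 is level.

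For each tested HSP70 and HSP110 gene other than HSPA9 the groups overlapped in its brightest probe set. HSPA4 and HSPH1, nucleotide exchange factors of the HSP110 branch, differed by -0.05 and -0.08, with intervals of -0.25 to 0.15 and -0.33 to 0.16. HSPH1 read 11.55, 11.59 and 11.27 on aligned fibers and 11.46, 11.57 and 11.63 on random fibers, with aligned 3 the lowest and random 3 the highest. The other bright HSPH1 probe sets differed by -0.09 ± 0.16 and -0.28 ± 0.13 (SE), and in the latter the groups did not overlap. HSPA4L, a relative of HSPA4 that is also induced by stress, read 8.74, 9.08 and 8.67 on aligned fibers and 8.81, 9.05 and 9.33 on random fibers, a difference of -0.24 ± 0.16 (SE) that became -0.02 without both arrays numbered 3. HSPA13, a microsomal HSP70, differed by 0.02. HSPA2 was dim at 4.07, 4.04 and 4.01 on aligned fibers and 4.38, 4.21 and 4.31 on random fibers. These values did not overlap but lay below the brightness limit, and when dim probe sets were let in the difference of -0.26 had an unadjusted p of 0.0107 and an adjusted p of 0.504 in limma.

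The most familiar HSP70 genes could be followed only through probe sets that carry several symbols, so their values are given by probe set. The brightest probe set annotated to HSPA8 (the constitutive HSC70) and 2 small nucleolar RNA genes in it read 13.35, 13.35 and 12.95 on aligned fibers, against 13.36, 13.34 and 13.39 on random fibers. Aligned 3 was low and the other 5 arrays were level. The 4 probe sets of this kind differed by -0.15 to -0.07. For the stress-inducible pair HSPA1A and HSPA1B, which encode nearly the same protein, the bright probe set shared by them alone read 6.63, 6.33 and 5.85 on aligned fibers. On random fibers it read 6.32, 6.42 and 6.53, a difference of -0.15 ± 0.19 (SE). Aligned 1 was the highest of the 6 arrays and aligned 3 the lowest. Another, which is also annotated to HSPA1L, differed by -0.14 ± 0.09 (SE).

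HSP90AA1 and HSP90AB1 are the stress-inducible and the constitutive cytosolic HSP90. HSP90AA1 read 13.44, 13.44 and 13.24 on aligned fibers and 13.37, 13.40 and 13.59 on random fibers, a difference of -0.08 with an interval of -0.30 to 0.15. HSP90AB1 read 13.39, 13.35 and 13.13 on aligned fibers and 13.37, 13.32 and 13.42 on random fibers, a difference of -0.08 with an interval of -0.29 to 0.13. In both genes aligned 3 was the lowest array and random 3 the highest, and without these arrays the differences were 0.06 and 0.02. The 4 probe sets of HSP90AA1 had differences between -0.08 and -0.03.

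Of the HSP90 cochaperones 4 of 6 had differences above 0, with a median of 0.05 and 0 at an unadjusted p under 0.05 in limma. FKBP4 (FKBP52), an immunophilin that helps steroid receptors reach the nucleus, read 9.98, 10.16 and 10.26 on aligned fibers, against 9.78, 9.92 and 10.06 on random fibers. Each aligned array exceeded the random array of the same number by 0.21, 0.24 and 0.21, yet the groups overlapped because both spread in the same way. The difference was 0.22 ± 0.11 (SE), with an unadjusted p of 0.0780, and 0.0151 when replicate number entered as a block, while the adjusted p in limma was 0.486, and 0.362 under the block. FKBP5 (FKBP51), which opposes FKBP4 at the glucocorticoid receptor, differed by 0.10 ± 0.10 (SE) in its brightest probe set and by 0.01 and -0.07 in the other bright ones. Its difference was 0.04 without random 1. CDC37, which delivers kinases to HSP90, differed by 0.18 ± 0.14, with aligned 3 the highest array at 10.74. Its difference was 0.04 without aligned 3 and 0.30 without aligned 1, where the unadjusted p was 0.0493. STIP1 (HOP), the bridge between HSP70 and HSP90, differed by -0.11, PTGES3 (p23), which stabilises the closed HSP90 dimer, by -0.05, and the ubiquitin ligase STUB1 (CHIP) by 0.00 with an interval of -0.23 to 0.23.

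All 5 tested J-domain genes had differences below 0 (background 47.5%), with a median of -0.14 and 0 at an unadjusted p under 0.05 in limma. DNAJB4 read 8.58, 8.39 and 8.08 on aligned fibers, against 8.59, 8.47 and 9.11 on random fibers. Most of its difference of -0.37 ± 0.19 (SE) lay in the arrays numbered 3, and without them it was -0.05. Its second bright probe set differed by -0.38 ± 0.17 (SE), and there the groups did not overlap. DNAJB1 (HSP40), the main stress-inducible partner of HSP70, read 11.63, 11.69 and 11.34 on aligned fibers and 11.66, 11.68 and 11.79 on random fibers, a difference of -0.16 ± 0.11 (SE). DNAJA1, DNAJA2 and DNAJB6 differed by -0.14, -0.06 and -0.14, and a second DNAJA2 probe set by 0.03. In each of the 5 genes aligned 3 was the lowest of the 6 arrays. The J-domain median was -0.05 without aligned 3.

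BAG proteins release clients from HSP70. BAG3, induced by stress and linked to autophagy, read 10.86, 10.43 and 10.19 on aligned fibers and 10.69, 10.54 and 10.67 on random fibers, so the aligned arrays spread to both sides of the random ones. Its difference of -0.14 ± 0.16 (SE) was -0.32 without aligned 1 and 0.01 without aligned 3. BAG1, which also binds the apoptosis inhibitor BCL2, differed by 0.13 ± 0.12, with aligned 3 the highest array at 9.70, and was at 0.02 without aligned 3. BAG2, an inhibitor of STUB1, differed by 0.03, and its 3 bright probe sets disagreed in sign, between -0.11 and 0.03.

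The TRiC subunits gave small differences. All 7 tested subunits had differences above 0, between 0.01 and 0.08 with a median of 0.05, and in each the interval lay within 0.5 log2 units of 0. The second bright probe sets of CCT4 and CCT6A lay just below 0, at -0.012 and -0.010. CCT2 read 12.56, 12.60 and 12.59 on aligned fibers, against 12.59, 12.55 and 12.57 on random fibers, a spread of hundredths of a unit. CCT3, CCT4, CCT5, CCT6A, CCT7 and CCT8 differed by 0.05, 0.04, 0.01, 0.08, 0.06 and 0.07. Without random 1 the median was -0.01. The 3 probe sets annotated to TCP1 and a small nucleolar RNA gene differed by 0.02 to 0.09. Actins and tubulins, the chief clients of TRiC, were tested for 12 of 13 genes. Of these 5 were above 0 and 7 below, with a median of -0.05 and 0 at an unadjusted p under 0.05. TUBA1A was furthest from 0 at -0.57 ± 0.29 (SE), which was -0.23 without aligned 3 and -0.89 without aligned 1, and its unadjusted p was 0.0834, or 0.0447 under the replicate block.

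HSF1, the factor that switches on the heat shock response, read 8.35, 8.47 and 8.76 on aligned fibers, against 8.36, 8.39 and 8.42 on random fibers. Aligned 2 and aligned 3 exceeded every random array and aligned 1 did not, so the groups overlapped. The difference was 0.14 ± 0.11 (SE), and 0.02 without aligned 3. Heat-inducible genes were read as a group of 15, chosen with earlier results of these data known. Of these 11 were tested: HSPH1, HSPA4L, DNAJB1, DNAJB4, HSPB1, HSPB8, BAG3, HSP90AA1, HSPD1, HSPE1 and STIP1. In limma 1 (HSPB1) was lower at an unadjusted p under 0.05 (background 5.81%), and 0 had an adjusted p under 0.05. All 11 had a difference below 0 (background 47.5%), with a median of -0.14, a tally that describes the list. Most of that difference lay between the arrays numbered 3. Its mean over the 11 genes was 0.02 for number 1, -0.04 for number 2 and -0.50 for number 3, each aligned array set against the random array of its number. The arrays numbered 3 gave the widest difference in all 11, as they did for 67.5% of all genes.

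**Figure D3:**
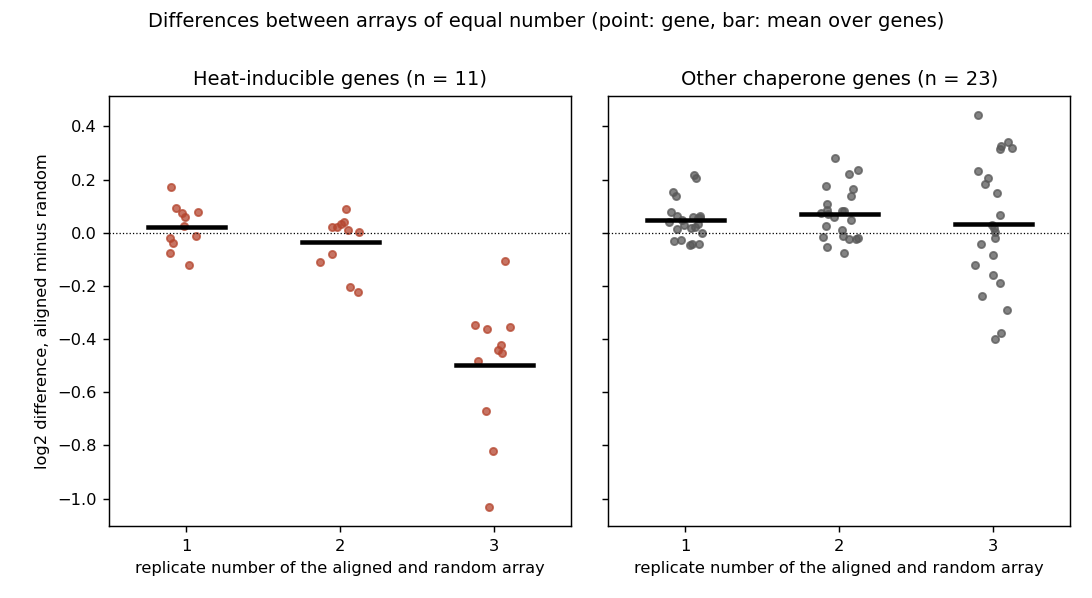
Log2 differences between the aligned and the random array of equal number, for the 11 heat-inducible genes on the left and the other 23 tested chaperone genes on the right, with the mean over genes as a bar. On the left the mean is 0.02, -0.04 and -0.50 for numbers 1, 2 and 3, and on the right it is 0.05, 0.07 and 0.03.

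Both arrays of that number contributed. Relative to each gene's own mean over the 6 arrays, the heat-inducible genes stood at 0.04, -0.03 and -0.26 on aligned 1, 2 and 3, and at 0.01, 0.01 and 0.23 on random 1, 2 and 3. Random 3 was the highest array in 10 of the 11 genes, against 24.8% of all genes, and aligned 3 was the lowest in 9, against 26.5% of all genes. The median of -0.14 was -0.04 without aligned 3, with 8 of 11 below 0, and -0.10 without random 3, with 9 of 11 below 0. Without both arrays it was 0.02, with 5 of 11 below 0. Over all genes, the deviations of aligned 3 and random 3 from their group means correlated at only 0.109. The part that the distance of aligned 3 from the other arrays has in this was not tested.

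In the promoter stretches printed earlier HSP90AB1 carried 2 matches to the long form, HSP90AA1 and HSPA8 carried 1 each, and DNAJB1 carried 2 short matches that stand apart. The 15 tested genes with a short match anywhere in their windows had a median difference of -0.11 and a range of -0.37 to 0.29. Of these 11 were below 0 (background 47.5%). Heat-inducible genes such as HSPB1, DNAJB1 and HSP90AA1 are among them, so this tally in part repeats the one above. For the 15 tested genes whose windows held no match the median was 0.02 and the range -0.14 to 0.25, with 6 below 0. The ranges overlapped, and the 5 tested genes with a long match lay between -0.14 and -0.02. HSF1, FKBP4, CCT6A and STUB1 had no window and are in neither group, and their differences were 0.14, 0.22, 0.08 and 0.00. The contrast between genes with and without a match was not tested.

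Beyond the 43 genes, other cytosolic chaperones and cochaperones were read from a list of 46 genes, of which 41 were tested. Their median was 0.05, with 30 above 0 (background 52.5%) and 11 below. At an unadjusted p under 0.05 there were 2, against 10.5% of all genes. Under the replicate block there were 4 (9.76%, against 13.6% of all genes), and 0 had an adjusted p under 0.05 in limma. PFDN2, a subunit of prefoldin, which hands actin and tubulin to TRiC, differed by 0.35 ± 0.11 (SE). It read higher on every aligned than on every random array. Its difference was 0.25 without aligned 3, and its unadjusted p in limma reached 0.0644 among the alternative settings. Of the 41 genes 7 were higher without overlap, against 8.71% of all genes, and 0 lower, against 9.33%. TTC4, a cochaperone of HSP90, differed by 0.26 ± 0.10, and its unadjusted p lay between 0.0656 and 0.0973 when aligned 2, aligned 3, random 1 or random 2 was dropped. DNAJB14, a J-domain protein of the endoplasmic reticulum membrane, differed by -0.36 ± 0.15, which was -0.20 without aligned 3 and -0.17 in its probe set without the suffix _s_at or _x_at. HSPB2, a small heat shock protein known from muscle, differed by 0.22 ± 0.10, which was 0.12 without random 3. The unadjusted p of HSPB2 was 0.0641, or 0.0271 with the replicate number as a block.

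Chaperones of the endoplasmic reticulum mostly had differences below 0. Of 18 tested genes 16 were below 0, with a median of -0.33, and 0 were at an unadjusted p under 0.05. Under the replicate block 9 of the 18 were lower at that threshold, against 7.3% of all genes. Of the 18, 0 had an adjusted p under 0.05 in limma, the lowest being 0.362. No label pairs the arrays, and the block rests on the values of these same arrays. Dropping aligned 3 gave a median of -0.14, dropping aligned 1 gave -0.60. HSP90B1 (GRP94), the HSP90 of that compartment, differed by -0.75 ± 0.44 (SE), beside -0.08 ± 0.10 for the cytosolic HSP90AA1, a contrast that was not tested. The HSP90B1 difference was -0.29 without aligned 3 and -1.24 without aligned 1, and its unadjusted p was 0.131, or 0.0435 with the replicate number as a block. Relative to each gene's mean the group stood at 0.30, -0.26 and -0.50 on aligned 1, 2 and 3, and at 0.35, 0.05 and 0.06 on random 1, 2 and 3. Aligned 1 and random 1 were both high, while the heat-inducible genes were near 0 on both, as the plot of gene groups by array shows.

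**Figure D4:**
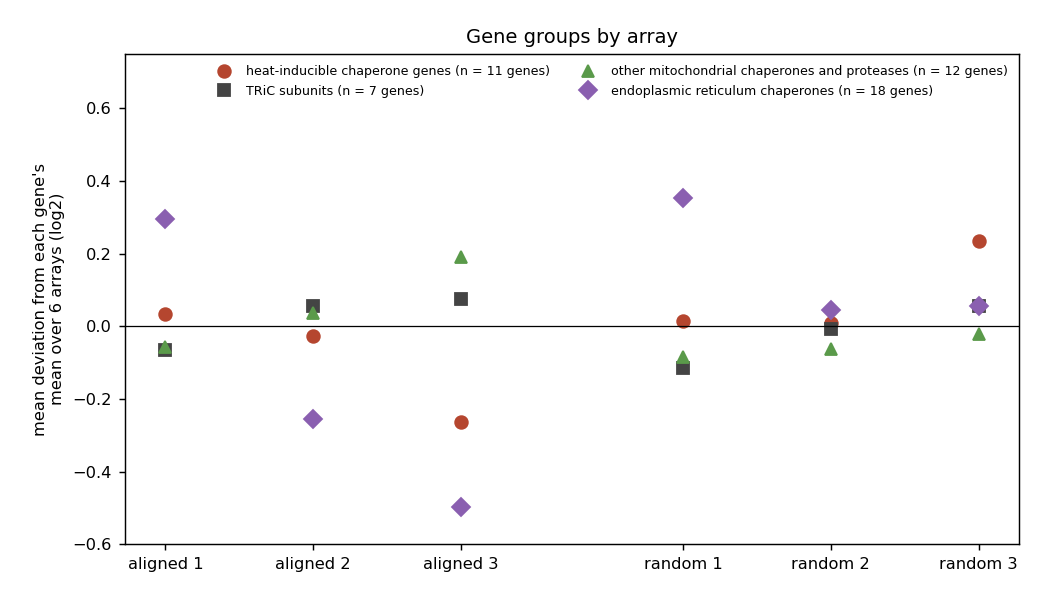
Mean deviation of 4 gene groups from each gene's own mean over 6 arrays, in log2 units, by array, aligned on the left and random on the right. Endoplasmic reticulum genes run between -0.50 and 0.35, heat-inducible genes between -0.26 on aligned 3 and 0.23 on random 3, and TRiC subunits between -0.11 and 0.08.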

How the data were processed

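Total RNA of 6 cultures, 3 per substrate, was measured on Affymetrix HG-U133 Plus 2 arrays, with group and replicate number read off each title. The deposited log2 values, 1 per probe set and array, came from RMA run by the authors, per the submitters' processing notes. That method corrects background, quantile-normalizes the arrays and summarises probes; the version is not given in the sources used here. The labels describe the cultures as independent. Scanner files were not used here, so brightness was judged by rank within an array.

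Of 54675 probe sets, 62 controls were set aside. The brightness filter asked for a value above the array's own median on 3 or more of the 6 arrays and passed 27621. Genes were named from the platform annotation (41091 probe sets with 1 symbol, 1801 with several, 11721 with none), and each gene took its kept single-symbol probe set with the highest mean. Aligned was compared with random with limma 3.58.1 (lmFit, then eBayes; R 4.3.3), two-sided, with 4 residual degrees of freedom before shrinkage and p-values adjusted by Benjamini-Hochberg over 12381 genes at a threshold of 0.05. Unadjusted p-values are from the same fit. Probe sets were fitted over all 27621. Precision is limited by how few arrays there are: the median standard error over genes was 0.10 log2 units. The code was tested on simulated data. Figures were drawn with matplotlib 3.10.9.

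The gene set and lists were chosen with earlier results of these data known. The rule for named genes took all 43 genes, values by array for those at an unadjusted p under 0.05 (filled up to 10 by smallest p) and for the factor, HSP70, HSP90 and small heat shock genes, and up to 4 genes of each other list by smallest p. Values by array of further genes were added after they were seen. Alternatives were the replicate number as a block, each array left out, no brightness filter, a stricter one (75th percentile), median centring, repeated quantile normalization, a trended robust prior, averaging a gene's probe sets, and omission of probe sets with the suffix _s_at or _x_at. Omission of both arrays numbered 3 was chosen after seeing the data. Numbers 1 to 3 occur in both groups with no label saying what they share. Between arrays of equal number, each gene's deviations from its group mean had correlations of 0.369, 0.322 and 0.109, all above 0.1, and on that basis equal numbers were treated as pairs, which rests on the values. Aligned 2 and random 3 had a correlation of 0.188, above that of the arrays numbered 3, so the pairing of number 3 is weak.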

Additional observations from a re-analysis of the deposited data

How the results depend on the processing

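No chaperone gene had an adjusted p under 0.05 in limma in any of the 15 alternatives, the lowest being 0.124 when aligned 1 was dropped, and counts at that threshold stayed at 0, also over all genes. With replicate number as a block 4 chaperone genes were at an unadjusted p under 0.05 (11.8%, against 13.6% of all genes), FKBP4 being added. Of the 18 endoplasmic reticulum genes 9 were lower at that threshold, against 7.3% of all genes, and no adjusted call changed. Without the block 0 of the 18 were at that threshold, and the pairing behind the block was taken from these same values. The 1303 genes at an unadjusted p under 0.05 became 851 with the 75th percentile filter, 584 without both arrays numbered 3, and 624 to 2491 with 1 array dropped. For chaperone genes that count ran from 1 to 8 with 1 array dropped (2.94% to 23.5%, against 5.04% to 20.1% of all genes). The count without overlap ran from 3 to 13 (8.82% to 38.2%, against 22.9% to 40.2% of all genes). It was 5 of 23 when probe sets of suffix _s_at and _x_at were left out (21.7%, against 18.2% of all genes) and 10 without both arrays numbered 3 (29.4%, against 32.8%). The median over the 34 genes ran from -0.049 to 0.0079 with 1 array dropped.

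Without both arrays numbered 3, medians were 0.059 for HSP90, 0.048 for the mitochondrial chaperonin, 0.022 for heat-inducible genes and 0.035 for proteotoxic and oxidative stress genes. In that setting 13 of 34 genes changed sign: BAG3 was at 0.031, CCT6A was at -0.0019, DNAJA2 was at 0.022, HSP90AA1 was at 0.059, HSP90AB1 was at 0.023, HSPA13 was at -0.061, HSPA4 was at 0.0050, HSPD1 was at 0.022, HSPE1 was at 0.074, HSPH1 was at 0.058, PTGES3 was at 0.015, STIP1 was at 0.039 and STUB1 was at -0.032. STUB1 was also at -0.0028 after median centring and -0.0015 with the mean of probe sets, BAG2 at -0.030 with the mean of probe sets, and HSPD1 at 0.045 without _s_at and _x_at sets. The cause was not tested.

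With 1 array dropped, medians ran from 0.024 to 0.23 for HSF1, -0.089 to 0.019 for HSP70 and HSP110, -0.11 to -0.00100 for HSP90, -0.41 to -0.22 for small heat shock proteins, -0.080 to 0.026 for the mitochondrial chaperonin, -0.20 to -0.054 for J-domain proteins, -0.037 to 0.12 for BAG proteins and -0.010 to 0.13 for HSP90 cochaperones. They ran from -0.0061 to 0.097 for TRiC, -0.19 to -0.039 for heat-inducible genes, 0.012 to 0.088 for other cytosolic chaperones, 0.041 to 0.16 for mitochondrial chaperones and proteases, -0.60 to -0.14 for the endoplasmic reticulum, -0.087 to -0.021 for actins and tubulins, 0.057 to 0.25 for glucocorticoid receptor targets and -0.056 to 0.043 for proteotoxic and oxidative stress genes. Genes that changed sign ran from -0.037 to 0.12 (BAG2), -0.32 to 0.012 (BAG3), -0.0061 to 0.13 (CCT3), -0.043 to 0.097 (CCT4), -0.043 to 0.057 (CCT5), -0.039 to 0.15 (CCT7), -0.041 to 0.13 (HSPA13), -0.089 to 0.019 (HSPA4), -0.036 to 0.0030 (HSPD1), -0.13 to 0.048 (HSPE1), -0.14 to 0.020 (HSPH1), -0.19 to 0.012 (STIP1) and -0.056 to 0.081 (STUB1).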

Other observations

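Stress genes outside the chaperone families included some at an unadjusted p under 0.05, and 0 of them had an adjusted p under 0.05 in limma. Of 13 tested proteotoxic and oxidative stress genes 3 were higher at the unadjusted threshold (background 4.72%), while 7 were below 0 and the median was -0.02. The groups did not overlap in 2 of the 13 upward and 1 downward, against 8.71% and 9.33% of all genes. TXNRD1, a thioredoxin reductase, read 12.24, 12.07 and 12.22 on aligned fibers, against 11.96, 11.61 and 11.75 on random fibers, a difference of 0.40 ± 0.11 (SE) with no overlap. SRXN1, which repairs oxidised peroxiredoxins, differed by 0.32 ± 0.11 and HMOX1, which degrades heme, by 0.46 ± 0.17. Without aligned 3 the SRXN1 and HMOX1 differences were 0.22 and 0.33. Among the alternative settings their unadjusted p in limma reached 0.0926 and 0.197. VCP, next in this list by smallest p, went the other way, with differences of -0.46 to -0.16 when 1 array was dropped. Glucocorticoid receptor targets, read because HSP90 and the FKBP proteins hold that receptor, were tested for 13 genes. Of these 2 were higher (background 4.72%) and 1 lower (background 5.81%) at the unadjusted threshold. Their median of 0.13 was 0.057 without random 1 and 0.061 without aligned 3. SGK1, a kinase, differed by 0.45 ± 0.11 and CEBPD, a transcription factor, by -0.43 ± 0.11.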
